A study of Arabidopsis thaliana with 9 samples.

Results

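Abscisic acid (ABA) is the plant hormone of water deficit, and transcript levels of 10 genes of its pathway were followed in Arabidopsis thaliana seedlings carrying a mutant allele of AAR2. The 10 genes were taken by their locus codes, out of 22903 listed in every library. They are the ABA-responsive genes RD29B (AT5G52300) and RAB18 (AT5G66400), the synthesis gene NCED3 (AT3G14440), and 7 genes for protein phosphatases 2C, namely ABI1 (AT4G26080), ABI2 (AT5G57050), HAB1 (AT1G72770), PP2CA (AT3G11410), HAI1 (AT5G59220), HAI2 (AT1G07430) and HAI3 (AT2G29380). Whole seedlings aged 14 days had grown on diluted MS medium in long days. Wild type, aar2-1 and aar2-2 had 3 libraries each, numbered as replicates, and no treatment is named for any group. The labels do not say whether replicates came from separate cultures, so p-values measure the spread between these libraries, which may be technical. They give neither the molecular nature of the alleles nor the parental strain.

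ABA is made from carotenoids, and the dioxygenase NCED3 catalyses the step that limits its synthesis in drying leaves. When ABA binds a receptor of the PYR/PYL family, the receptor blocks the clade A protein phosphatases 2C (PP2Cs), which otherwise hold SnRK2 kinases inactive. The released kinases phosphorylate ABF transcription factors, which bind ABA-responsive elements (ABREs) in promoters such as that of RD29B. ABA also induces transcripts of several PP2C genes, a feedback that dampens the signal.

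Values are CPM, the reads of a gene scaled to a common library total, and means are given ± SD of 3 libraries. Counted reads ran from 24471852 to 35267559 per library. The wild-type libraries were the 3 shallowest of the 9, and depth cannot be told apart from genotype. AAR2 itself had 7.67 ± 0.584 CPM in wild type, 6.04 ± 1.12 in aar2-1 and 4.58 ± 0.615 in aar2-2 (limma adjusted p = 0.101 and 0.00908), and its exons overlap those of 1 listed gene on the other strand. Leaf markers (RBCS1A, LHCB1.1, LHCB2.1) summed to 24801 to 28648 CPM over the wild-type libraries, 25877 to 28223 in aar2-1 and 26039 to 29800 in aar2-2. RBCS1A makes up most of these sums and was above wild type without overlap in both mutants (limma adjusted p = 0.261 and 0.133). LHCB1.1 and LHCB2.1 were below wild type without overlap in both, and fell in aar2-2, where limma gave -1.03 (SE 0.21, adjusted p = 0.0105) and -0.91 (SE 0.21, adjusted p = 0.0150) on the log2 scale. In aar2-1 their adjusted p-values were 0.0717 and 0.0565, and both were highest in wild-type replicate 2. Guard cell markers (FAMA, MYB60, KAT1) summed to 44.2 to 48.2, 41.8 to 49.6 and 48.7 to 59.1 CPM in the same order, and 7 root markers to 63.3 to 64.7, 51.6 to 61.6 and 58.4 to 63.1 CPM. SCR and SHR, with wild-type means of 44.1 and 18.8 CPM, make up most of the root sums. The other 5 root markers (PLT1, PLT2, COBL9, EXPA7, EXPA18) were too low to test. The 4 seed storage markers, all too low to test, summed to 1.51 to 3.50 CPM in wild type, 0.651 to 2.42 in aar2-1 and 0.349 to 1.67 in aar2-2. The part of these markers in the results was not tested. In whole seedlings, fewer cells of a type and less RNA per cell cannot be told apart.

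In aar2-1, 7 of the 8 members that could be tested changed against wild type, 6 lower and 1 higher. RAB18, NCED3, ABI1, ABI2, HAB1 and HAI1 fell, and PP2CA rose. In aar2-2, 3 of the 8 changed, all lower: RAB18, ABI2 and HAI1. These are calls at an adjusted p under 0.05 in limma, fitted on log2(CPM + 1) over 18838 genes. Of all those genes 25.1% were called in aar2-1 (11.5% higher, 13.6% lower) and 21.5% in aar2-2 (12.1% higher, 9.4% lower). Only genes averaging at least 1 CPM over the 9 libraries entered, which left HAI2 and HAI3 out. Both mutants were set against the same 3 wild-type libraries. RAB18, ABI2 and HAI1 were lower in both, beside 7.17% of all genes called lower in both and 13.6% called in both in the same direction. The median log2 fold change of the 8 members was -0.48 in aar2-1 and -0.29 in aar2-2, beside -0.0037 and 0.032 for all genes tested. The members were chosen with earlier results of these data known, so shares and medians set beside all genes are descriptions, not tests.

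**Figure D1:**
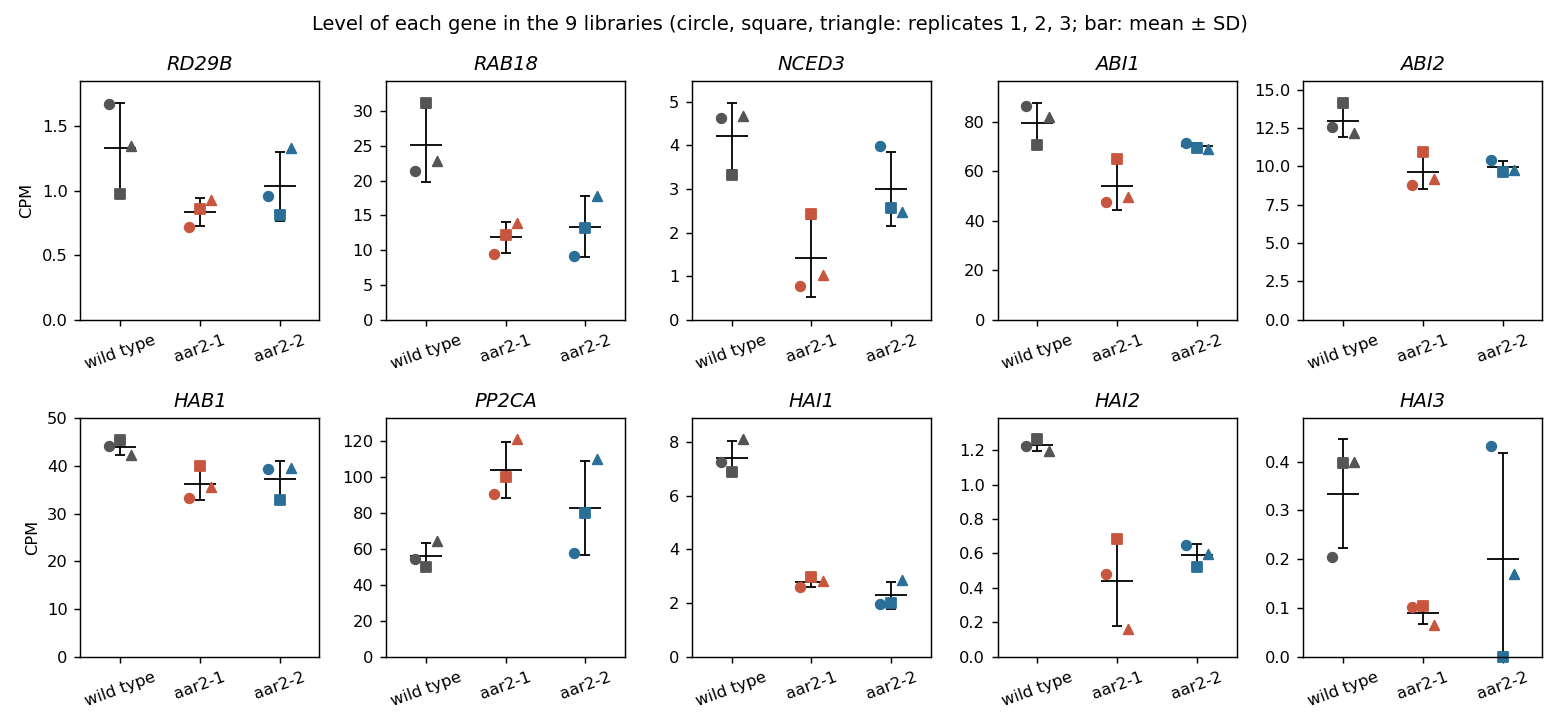
CPM (y axis, from 0) of the 10 genes in wild type, aar2-1 and aar2-2, with 1 point per library (circle, square and triangle for replicates 1, 2 and 3) and a bar for the mean ± SD of 3 libraries. HAI1 sits between 6.89 and 8.09 CPM in wild type and at 2.98 CPM or less in every mutant library, while PP2CA reaches 121 CPM in aar2-1.

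RAB18 encodes a dehydrin, a hydrophilic protein that accumulates in drying cells, and is a marker of the ABA response. For RAB18, wild-type libraries gave 21.4, 31.2 and 22.8 CPM, aar2-1 libraries 9.51, 12.2 and 13.9 CPM and aar2-2 libraries 9.14, 13.2 and 17.8 CPM. Mutant libraries were all below the wild-type ones, and those of aar2-2 were spread more widely than those of aar2-1. In CPM, means were 25.1 ± 5.31 in wild type, 11.9 ± 2.23 in aar2-1 and 13.4 ± 4.35 in aar2-2. The limma log2 fold change came to -1.02 (SE 0.22, adjusted p = 0.0105) for aar2-1 and -0.89 (SE 0.22, adjusted p = 0.0209) for aar2-2. The aar2-2 call was lost when wild-type replicate 2 (adjusted p = 0.0711), aar2-2 replicate 1 (0.0532) or aar2-2 replicate 2 (0.0562) was left out, within 0.00136 to 0.0711 over all alternatives. A small part of the RAB18 exons overlaps a listed gene on the other strand.

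RD29B, which encodes a hydrophilic protein of drying and salt-stressed tissue, was near the lower limit of the tested range. For RD29B, wild-type libraries gave 1.68, 0.974 and 1.34 CPM, aar2-1 libraries 0.716, 0.857 and 0.926 CPM and aar2-2 libraries 0.957, 0.814 and 1.33 CPM, on 21 to 47 reads each. The aar2-1 libraries lay just below wild type, and aar2-2 overlapped it. The limma log2 fold change came to -0.34 (95% interval -0.67 to -0.0076, adjusted p = 0.122) for aar2-1 and -0.19 (95% interval -0.52 to 0.14, adjusted p = 0.373) for aar2-2. This scale understates the change of genes as low as RD29B: on recovered reads edgeR put its log2 fold change at -0.65 (adjusted p = 0.115) and -0.38 (adjusted p = 0.339).

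NCED3 is the synthesis gene among the members. For NCED3, wild-type libraries gave 4.62, 3.32 and 4.68 CPM, aar2-1 libraries 0.784, 2.43 and 1.02 CPM and aar2-2 libraries 3.98, 2.56 and 2.47 CPM. Each aar2-1 library was below each wild-type and each aar2-2 library, with replicate 2 the highest of them, and aar2-2 overlapped wild type. The aar2-1 mean was 33.6% of wild type, a limma log2 fold change of -1.16 (SE 0.24, adjusted p = 0.00880), against -0.39 (95% interval -0.93 to 0.15, adjusted p = 0.273) for aar2-2. NCED3 has 0 introns in its TAIR10.1 gene model, whereas RAB18 has 1, RD29B has 4, and the 7 PP2C genes have 2 or 3.

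The PP2C genes did not move as a block. Among the 5 that were tested, 4 fell and 1 rose in aar2-1, and 2 fell in aar2-2. Of all genes, 13.6% were called lower and 11.5% higher in aar2-1, and 9.4% lower in aar2-2. HAI1 is a PP2C strongly induced by ABA and drought. For HAI1, wild-type libraries gave 7.23, 6.89 and 8.09 CPM, aar2-1 libraries 2.59, 2.98 and 2.81 CPM and aar2-2 libraries 1.98, 2.01 and 2.86 CPM. The mutant libraries lay far below wild type and close to each other. Mutant means were 37.7% and 30.8% of wild type, with limma log2 fold changes of -1.15 (SE 0.12, adjusted p = 0.000521) and -1.37 (SE 0.12, adjusted p = 0.000288). Averaged over both mutants, this was the largest change of the 8 tested members, and all 17 alternatives called it in both.

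PP2CA, also called AHG3, acts in seeds and in guard cells and went the other way. For PP2CA, wild-type libraries gave 54.4, 50.0 and 64.2 CPM, aar2-1 libraries 90.5, 100.1 and 121 CPM and aar2-2 libraries 57.8, 80.0 and 109.9 CPM. All aar2-1 libraries exceeded all wild-type ones, whereas 1 aar2-2 library, replicate 1, was no higher than the top of wild type. The aar2-1 mean was 1.85 times that of wild type, a limma log2 fold change of 0.87 (SE 0.20, adjusted p = 0.0130). For aar2-2 the ratio of means was 1.47 and the limma log2 fold change 0.51 (95% interval 0.06 to 0.95, adjusted p = 0.0961). Leaving out aar2-2 replicate 1 gave 0.74 (adjusted p = 0.0211) and leaving out aar2-2 replicate 3 gave 0.28 (adjusted p = 0.273), and over the alternatives the adjusted p ran from 0.0190 to 0.273. Of the 8 tested members, PP2CA alone had positive fold changes.

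ABI1 and ABI2 are close relatives whose dominant mutant forms make plants insensitive to ABA. For ABI1, wild-type libraries gave 86.3, 70.7 and 81.9 CPM, aar2-1 libraries 47.5, 64.9 and 49.5 CPM and aar2-2 libraries 71.6, 69.4 and 69.1 CPM. The aar2-1 libraries were below all others, and the tightly grouped aar2-2 libraries overlapped the lower end of wild type. Its limma log2 fold change came to -0.56 (SE 0.11, adjusted p = 0.00761) for aar2-1 and -0.18 (95% interval -0.43 to 0.07, adjusted p = 0.283) for aar2-2. A small part of the ABI1 exons overlaps a listed gene on the other strand. For ABI2, wild-type libraries gave 12.6, 14.1 and 12.2 CPM, aar2-1 libraries 8.76, 10.9 and 9.20 CPM and aar2-2 libraries 10.4, 9.62 and 9.78 CPM. Here both mutants lay below wild type without overlap. The limma log2 fold changes were -0.40 (SE 0.10, adjusted p = 0.0154) and -0.35 (SE 0.10, adjusted p = 0.0289). Both ABI2 calls depended on single libraries: without wild-type replicate 2 the adjusted p-values were 0.0508 and 0.0908. Also lost were the aar2-1 call without aar2-1 replicate 1 (0.0548) and the aar2-2 call without wild-type replicate 1 (0.0722), aar2-2 replicate 2 (0.0863) or aar2-2 replicate 3 (0.0742).

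HAB1 is a further PP2C that restrains ABA signalling. For HAB1, wild-type libraries gave 44.1, 45.5 and 42.3 CPM, aar2-1 libraries 33.2, 39.9 and 35.5 CPM and aar2-2 libraries 39.5, 32.8 and 39.6 CPM. All mutant libraries were below all wild-type libraries, by a small margin. The limma log2 fold changes were -0.28 (SE 0.09, adjusted p = 0.0486) and -0.24 (SE 0.09, adjusted p = 0.0868). The aar2-1 call was lost under 14 of 17 alternatives, with adjusted p-values from 0.0241 to 0.153.

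HAI2 and HAI3, the other genes of the HAI group, were too low for the test. For HAI2, wild-type libraries gave 1.23, 1.26 and 1.20 CPM, aar2-1 libraries 0.477, 0.686 and 0.160 CPM and aar2-2 libraries 0.648, 0.523 and 0.595 CPM, on 5 to 35 reads each. Every mutant library was below every wild-type one, with aar2-1 replicate 3 the lowest. Exact two-sided permutation tests on the HAI2 CPM gave p = 0.1 for each mutant, the smallest p that 3 against 3 libraries allow. With no filter on low values, limma adjusted p-values for HAI2 were 0.00606 (aar2-1) and 0.0225 (aar2-2), in fits that called 21.3% and 18.1% of 22903 genes, and edgeR gave adjusted p-values of 0.0196 and 0.0535. For HAI3, wild-type libraries gave 0.204, 0.397 and 0.399 CPM, aar2-1 libraries 0.102, 0.103 and 0.0639 CPM and aar2-2 libraries 0.432, 0 and 0.170 CPM, on 0 to 14 reads each. The value of 0 in aar2-2 replicate 2 allows a level of up to 0.0872 CPM (3 reads, counting error only). With no filter, limma adjusted p-values for HAI3 were 0.114 and 0.373, so a difference was not detectable at this depth.

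Of the 8 tested members, the libraries of 7 were lower in aar2-1 than in wild type without overlap and those of 1, PP2CA, were higher. Over all genes tested, 21.8% were lower and 19.8% higher in that sense. In aar2-2, 4 of the 8 were lower without overlap (RAB18, ABI2, HAB1 and HAI1) and 0 higher, beside 19.2% and 25.1% of all genes tested. Among the untested members, HAI2 was lower without overlap in both mutants. HAI3 was lower without overlap in aar2-1 alone, on 2 to 3 reads against 5 to 11 in wild type.

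**Figure D2:**
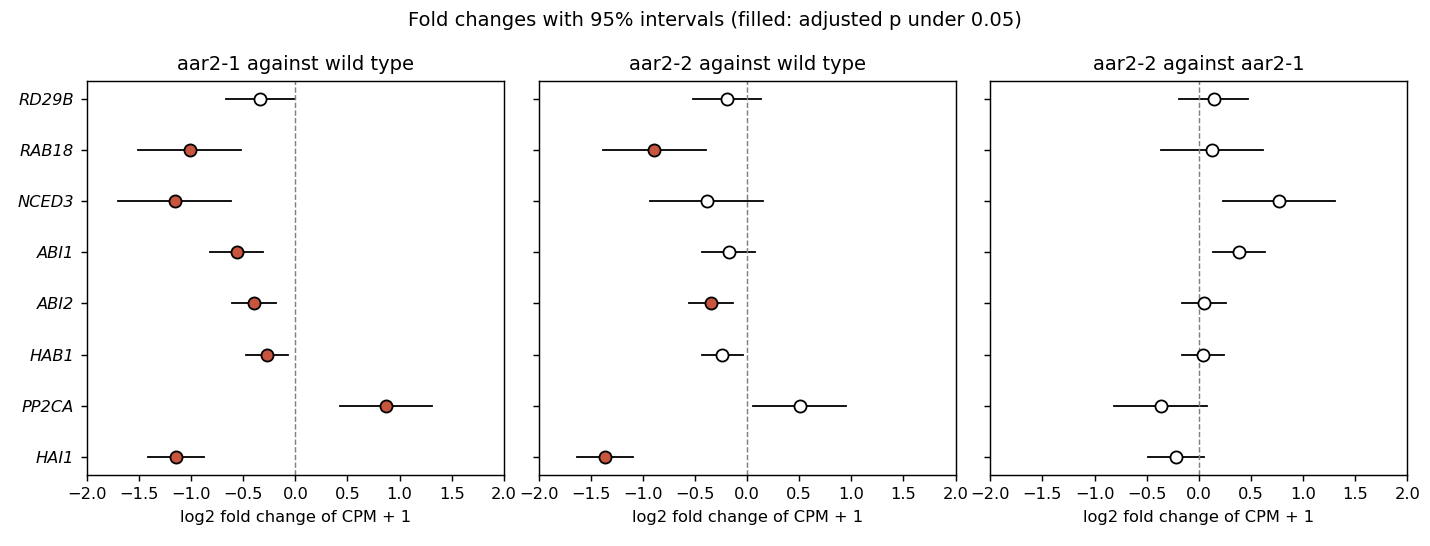
Log2 fold change of CPM + 1 (x axis) of the 8 tested genes for aar2-1 against wild type, aar2-2 against wild type, and aar2-2 against aar2-1, with 95% intervals from limma and filled points where the adjusted p was under 0.05. HAI1 lies furthest left in aar2-2, at -1.37, PP2CA is the only one to the right of 0 in both mutants, and no point is filled between the mutants.

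Between the mutants (aar2-2 against aar2-1), 0 of the 8 members were called by limma, edgeR or DESeq2. An unadjusted limma p under 0.05 was seen for 2 of the 8, beside 3022 of all 18838 genes tested. Over all genes limma called 0.0212% (0.00531% higher, 0.0159% lower). Against wild type, edgeR called 24.4% of genes in aar2-1 and 21.2% in aar2-2, and DESeq2 23.1% and 21.0%. Those shares belong to other comparisons and are no measure for the 0 of 8 between the mutants. The edgeR and DESeq2 shares of all genes between the mutants are not given here. The 2 members were NCED3, with a log2 difference of 0.77 (95% interval 0.23 to 1.31, limma adjusted p = 0.217), and ABI1, with 0.38 (0.13 to 0.64, adjusted p = 0.205). In both genes each aar2-2 library was above each aar2-1 library, as in 13.7% of all genes tested, with 6.12% the other way. In both, aar2-1 replicate 2 was the aar2-1 library nearest to aar2-2, and without it the limma adjusted p was 0.0486 for NCED3 and 0.0406 for ABI1. That a gene was called in aar2-1 alone therefore does not show that the alleles differ. HAI1 differed between the mutants by -0.22 (-0.49 to 0.051) and PP2CA by -0.37 (-0.81 to 0.080) on the log2 scale.

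Levels of different genes were set side by side per kilobase of exons. In wild type the order, in mean CPM per kb, was ABI1 (36.7), PP2CA (31.2), RAB18 (23.1), HAB1 (15.7), ABI2 (5.68), HAI1 (3.55), NCED3 (1.54), HAI2 (0.645), RD29B (0.613) and HAI3 (0.223). Library ranges overlapped between ABI1 and PP2CA, between PP2CA and RAB18, and between HAI2 and RD29B, so those neighbours are not ordered beyond their spread. In aar2-1 PP2CA stood first at 57.7 ± 8.63 CPM per kb, above ABI1 at 24.9 ± 4.38 without overlap. In aar2-2 PP2CA (45.9 ± 14.5 CPM per kb) and ABI1 (32.3 ± 0.628) overlapped.

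With HAB2 and AHG1 added, the 7 PP2C members make up clade A. Of the levels per kb summed over these 9 genes, PP2CA held 26.9 to 30.8% in wild-type libraries, 44.6 to 54.7% in aar2-1 and 31.5 to 47.3% in aar2-2. These shares did not overlap wild type, but PP2CA was singled out because it rose, and the sum holds the PP2Cs that fell. The shares therefore restate those changes and are no test. In CPM, PP2CA in aar2-2 overlapped wild type. The mean share of PP2CA was 28.3%, 49.1% and 39.8% in the order wild type, aar2-1 and aar2-2, and that of ABI1 was 33.3%, 21.2% and 28.8%. Over all 9 genes the sums were 111, 103 and 116 CPM per kb in wild type, 105, 125 and 123 in aar2-1, and 102, 109.6 and 129 in aar2-2, and the 3 genotypes overlapped. Without PP2CA, the gene that rose, the other 8 genes summed to 81.1, 75.5 and 80.0 CPM per kb in wild type, 54.4, 68.9 and 55.7 in aar2-1, and 70.0, 65.1 and 68.0 in aar2-2. Each mutant sum without PP2CA was below each wild-type one. PP2CA was left out because it rose in these data, so this largely restates the falls of single genes and is no test. HAB2 itself was not called in either mutant: means were 43.1 ± 1.64 in wild type, 42.2 ± 4.79 in aar2-1 and 42.6 ± 1.18 in aar2-2. AHG1, a PP2C known mainly from seeds, reached at most 0.113 CPM.

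**Figure D3:**
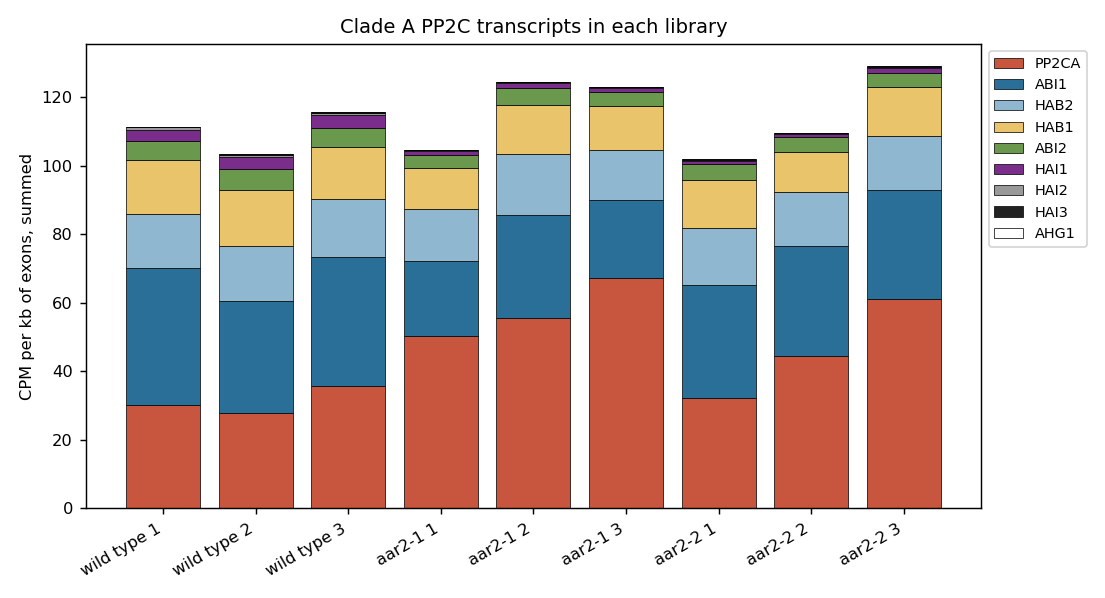
Level in CPM per kb of exons (y axis, from 0) of the 9 clade A PP2C genes, stacked for each of the 9 libraries. PP2CA, at the foot of each bar, makes up 26.9 to 30.8% of the stack in wild type and 44.6 to 54.7% in aar2-1.

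Upstream sequence is shown for the PP2C that rose in aar2-1 (PP2CA), the tested PP2C with the largest fall (HAI1), its relative HAI2, which was too low for the test, and RD29B, the textbook ABRE promoter. Each is the 300 bases before the gene's start in RefSeq's TAIR10.1 annotation, written 5′ to 3′ on the gene's strand. Capitals mark ACGTG, the core of an ABRE, and CCGAC, the core of the dehydration-responsive element, on either strand.
PP2CA, chr3:3585851-3586150, minus strand: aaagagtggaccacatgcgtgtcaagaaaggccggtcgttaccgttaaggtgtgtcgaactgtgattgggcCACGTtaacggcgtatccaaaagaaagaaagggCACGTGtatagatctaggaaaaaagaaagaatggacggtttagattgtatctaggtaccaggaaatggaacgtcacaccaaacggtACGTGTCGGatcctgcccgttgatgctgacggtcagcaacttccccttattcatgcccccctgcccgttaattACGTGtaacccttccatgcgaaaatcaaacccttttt
HAI1, chr5:23896940-23897239, minus strand: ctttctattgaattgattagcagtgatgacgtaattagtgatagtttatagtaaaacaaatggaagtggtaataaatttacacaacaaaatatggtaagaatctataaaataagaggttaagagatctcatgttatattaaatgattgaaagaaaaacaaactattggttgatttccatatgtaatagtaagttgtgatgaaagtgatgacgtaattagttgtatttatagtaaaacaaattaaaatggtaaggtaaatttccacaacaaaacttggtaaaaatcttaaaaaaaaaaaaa
HAI2, chr1:2282829-2283128, minus strand: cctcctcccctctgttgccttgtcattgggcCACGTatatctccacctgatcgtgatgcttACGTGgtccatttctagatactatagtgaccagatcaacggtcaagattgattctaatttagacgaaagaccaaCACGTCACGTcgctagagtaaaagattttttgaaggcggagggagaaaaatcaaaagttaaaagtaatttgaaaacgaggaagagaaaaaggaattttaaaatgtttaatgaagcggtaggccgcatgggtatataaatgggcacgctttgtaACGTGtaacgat
RD29B, chr5:21236721-21237020, plus strand: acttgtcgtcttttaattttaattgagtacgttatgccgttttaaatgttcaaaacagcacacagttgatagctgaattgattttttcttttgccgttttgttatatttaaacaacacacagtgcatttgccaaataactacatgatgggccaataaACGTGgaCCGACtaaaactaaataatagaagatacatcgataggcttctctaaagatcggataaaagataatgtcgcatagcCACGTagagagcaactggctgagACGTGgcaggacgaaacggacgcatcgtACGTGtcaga
PP2CA holds 4 ABRE cores, 1 of which is the palindrome CACGTG, and 1 CCGAC that shares bases with an ABRE core. HAI2 holds 5 ABRE cores, RD29B 4 and HAI1 0. The other members' windows hold 3 (RAB18), 2 (HAI3), 1 (ABI1 and HAB1) or 0 (NCED3 and ABI2). In all, 7 of the 10 windows hold ACGTG and 5 hold at least 2 copies, beside 26.3% and 6.29% of 22761 windows of the same length before listed genes. CCGAC occurs in 2 of the 10, in RD29B and PP2CA, beside 14.7% of all windows. PP2CA and HAI2 both have at least 4 ABRE cores, and HAI1 has none in this window. PP2CA and HAI1 were shown because of their changes, and whether ABRE cores bear on the levels was not tested. The RAB18 window lies partly in exons of a neighbouring gene.

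A list of 59 other ABA pathway genes, ordered by role, gives the setting. It too was chosen with earlier results of these data known, so its counts beside all genes are descriptions. Of these, 54 were listed and 43 tested. In aar2-1, 15 of the 43 were called, 5 higher and 10 lower, and in aar2-2 12 were, 4 higher and 8 lower, beside the 25.1% and 21.5% of all genes. The median log2 fold change over the 43 was -0.040 in aar2-1 and -0.032 in aar2-2. Without wild-type replicate 1, 9 of them were called in aar2-1. The share of all genes called in that fit is not given here.

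In the synthesis group, ABA4 was the 1 of 5 tested genes called in aar2-1, beside 25.1% of all genes. ABA4 is needed to make the neoxanthin that NCED enzymes cleave. In CPM, its means were 23.8 ± 1.53 in wild type, 18.5 ± 2.28 in aar2-1 and 21.5 ± 3.22 in aar2-2, with limma adjusted p-values of 0.0473 and 0.376, the first lost under 11 of 17 alternatives. The listed NCED genes besides NCED3 (NCED2, NCED5 and NCED9) were too low to test.

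Among genes of ABA breakdown and storage, the CYP707A genes encode the hydroxylases that inactivate ABA. For CYP707A2, wild-type libraries gave 18.6, 20.8 and 15.9 CPM, aar2-1 libraries 24.8, 26.2 and 12.6 CPM and aar2-2 libraries 45.4, 41.6 and 39.7 CPM. It rose in aar2-2, by a limma log2 fold change of 1.16 (SE 0.22, adjusted p = 0.00767), and overlapped wild type in aar2-1, at 0.14 (SE 0.22, adjusted p = 0.684). Without aar2-1 replicate 3, its lowest aar2-1 library, the aar2-1 value was 0.46 with a limma adjusted p of 0.0189. For CYP707A3, wild-type libraries gave 31.3, 11.5 and 42.5 CPM, aar2-1 libraries 60.3, 44.0 and 77.5 CPM and aar2-2 libraries 44.2, 73.0 and 118 CPM. Mutant libraries were all above wild type but spread widely. CYP707A3 rose in aar2-2, to 2.76 times the wild-type mean (limma adjusted p = 0.0404), a call lost under 6 of 17 alternatives, and its log2 fold change in aar2-1 was 1.21 (SE 0.45, adjusted p = 0.0762). That aar2-1 value was called under 3 of 17 alternatives, limma and edgeR with the replicate block (adjusted p = 0.0199 and 0.0212) and leaving out wild-type replicate 3 (1.58), and it was 0.68 (adjusted p = 0.221) without wild-type replicate 2. CYP707A1 rose in aar2-1, with a limma log2 fold change of 0.83 (SE 0.22, adjusted p = 0.0206), a call also lost under 6 of 17. Besides an adjusted p under 0.01, the CYP707A3 call was lost without wild-type replicate 1 or 2, aar2-1 replicate 1, or aar2-2 replicate 2 or 3 (adjusted p up to 0.122), and that of CYP707A1 without any 1 of the wild-type replicates or aar2-1 replicate 1 or 3 (up to 0.0639). CYP707A4, named after its values were seen, fell in aar2-1, with -0.67 (SE 0.20, adjusted p = 0.0369).

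Of 9 tested receptor genes, 2 rose in aar2-1 and 1 of those also in aar2-2, beside 11.5% and 12.1% of all genes called higher and 25.1% and 21.5% called in either direction. For PYL5, wild-type libraries gave 51.3, 42.6 and 56.4 CPM, aar2-1 libraries 112, 80.7 and 167 CPM and aar2-2 libraries 51.8, 80.7 and 106 CPM. As for PP2CA, aar2-1 lay wholly above wild type while replicate 1 of aar2-2 did not. Its limma log2 fold change came to 1.19 (SE 0.28, adjusted p = 0.0142) for aar2-1 and 0.61 (SE 0.28, adjusted p = 0.145) for aar2-2. PYL7 rose in both, with log2 fold changes of 0.33 (SE 0.08, adjusted p = 0.0154) and 0.28 (SE 0.08, adjusted p = 0.0313) in limma, but a large part of its exons overlaps a gene on the other strand, and its reads are uncertain. Both PYL7 calls were lost without wild-type replicate 1 (adjusted p = 0.0662 and 0.116), the aar2-1 call also without aar2-1 replicate 1, and the aar2-2 call also without wild-type replicate 3 or any of the aar2-2 replicates.

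Of the 3 SnRK2 kinase genes of ABA signalling, 2 rose in aar2-1 and 1 in aar2-2. Of all genes, 11.5% and 12.1% were called higher. For SNRK2.3, wild-type libraries gave 32.2, 31.2 and 33.7 CPM, aar2-1 libraries 50.5, 48.3 and 52.5 CPM and aar2-2 libraries 42.5, 48.1 and 49.6 CPM. All 6 mutant libraries were well above wild type. The limma log2 fold changes were 0.62 (SE 0.07, adjusted p = 0.000712) and 0.51 (SE 0.07, adjusted p = 0.00213), and all 17 alternatives called both. A small part of its exons overlaps a gene on the other strand. OST1, the kinase that closes stomata, rose in aar2-1, its log2 fold change being 0.57 (SE 0.11, adjusted p = 0.00567), and stood at 0.30 (SE 0.11, adjusted p = 0.0715) in aar2-2 in limma. Of the 5 tested transcription factor genes, ABF2 fell in both mutants, with limma log2 fold changes of -0.33 (SE 0.08, adjusted p = 0.0148) and -0.25 (SE 0.08, adjusted p = 0.0435), the second call lost under 9 of 17 alternatives. The other 4 were not called, and 7.17% of all genes were called lower in both mutants.

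Of 15 tested ABA-responsive genes besides the members, 7 fell in both mutants, beside 7.17% of all genes tested. The median log2 fold change over the 15 was -0.47 in aar2-1 and -0.38 in aar2-2, beside -0.0037 and 0.032 over all genes. The group did not fall as a whole: 10 of the 15 were below 0 in aar2-1 and 11 in aar2-2. ERD10 (0.50 in aar2-1 and 0.16 in aar2-2), COR47 (0.41 and 0.026), RD26 (0.30 and 0.31) and ATHB7 (0.048 and 0.0087) were above 0 in both, and not called. As with the members, this list was chosen with earlier results known, and the contrast is a description. LEA7 belongs to the late embryogenesis abundant proteins. For LEA7, wild-type libraries gave 4.45, 4.15 and 4.39 CPM, aar2-1 libraries 0.205, 0.446 and 0.799 CPM and aar2-2 libraries 0.679, 0.0872 and 0.851 CPM. Every mutant library was far below wild type, with limma log2 fold changes of -1.86 (SE 0.21, adjusted p = 0.000607) and -1.83 (SE 0.21, adjusted p = 0.000918). At such low levels log2(CPM + 1) understates the change: the LEA7 means were 11.2% (aar2-1) and 12.4% (aar2-2) of wild type. LEA7 passed the filter on low values only through wild type, where it averaged 4.33 CPM, against 0.483 in aar2-1 and 0.539 in aar2-2. Its place among the 7 is therefore a description. RD20, which encodes a caleosin, fell in both, with limma log2 fold changes of -0.85 (SE 0.21, adjusted p = 0.0158) and -1.04 (SE 0.21, adjusted p = 0.00842). RD29A, the neighbour of RD29B and also a gene of the cold response, fell too, with -0.48 (SE 0.08, adjusted p = 0.00340) and -0.40 (SE 0.08, adjusted p = 0.00919) in limma. RD22, COR15A, KIN2 and AFP1, an ABI5-binding protein gene, fell as well, with log2 fold changes from -0.36 (KIN2 in aar2-1) to -0.85 (AFP1 in aar2-2). KIN2 has a similar neighbouring copy, KIN1, and how reads were split between them is not given in the sources used here; AFP1 overlaps a gene on the other strand. Leaving out single libraries lost the RD20 call in aar2-1 (wild-type replicate 1 or 3 or aar2-1 replicate 1, adjusted p up to 0.0657), the COR15A call in aar2-2 (wild-type replicate 1 or aar2-2 replicate 1 or 2, up to 0.0823) and the KIN2 call in aar2-1 (wild-type replicate 1, 0.0575).

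**Figure D4:**
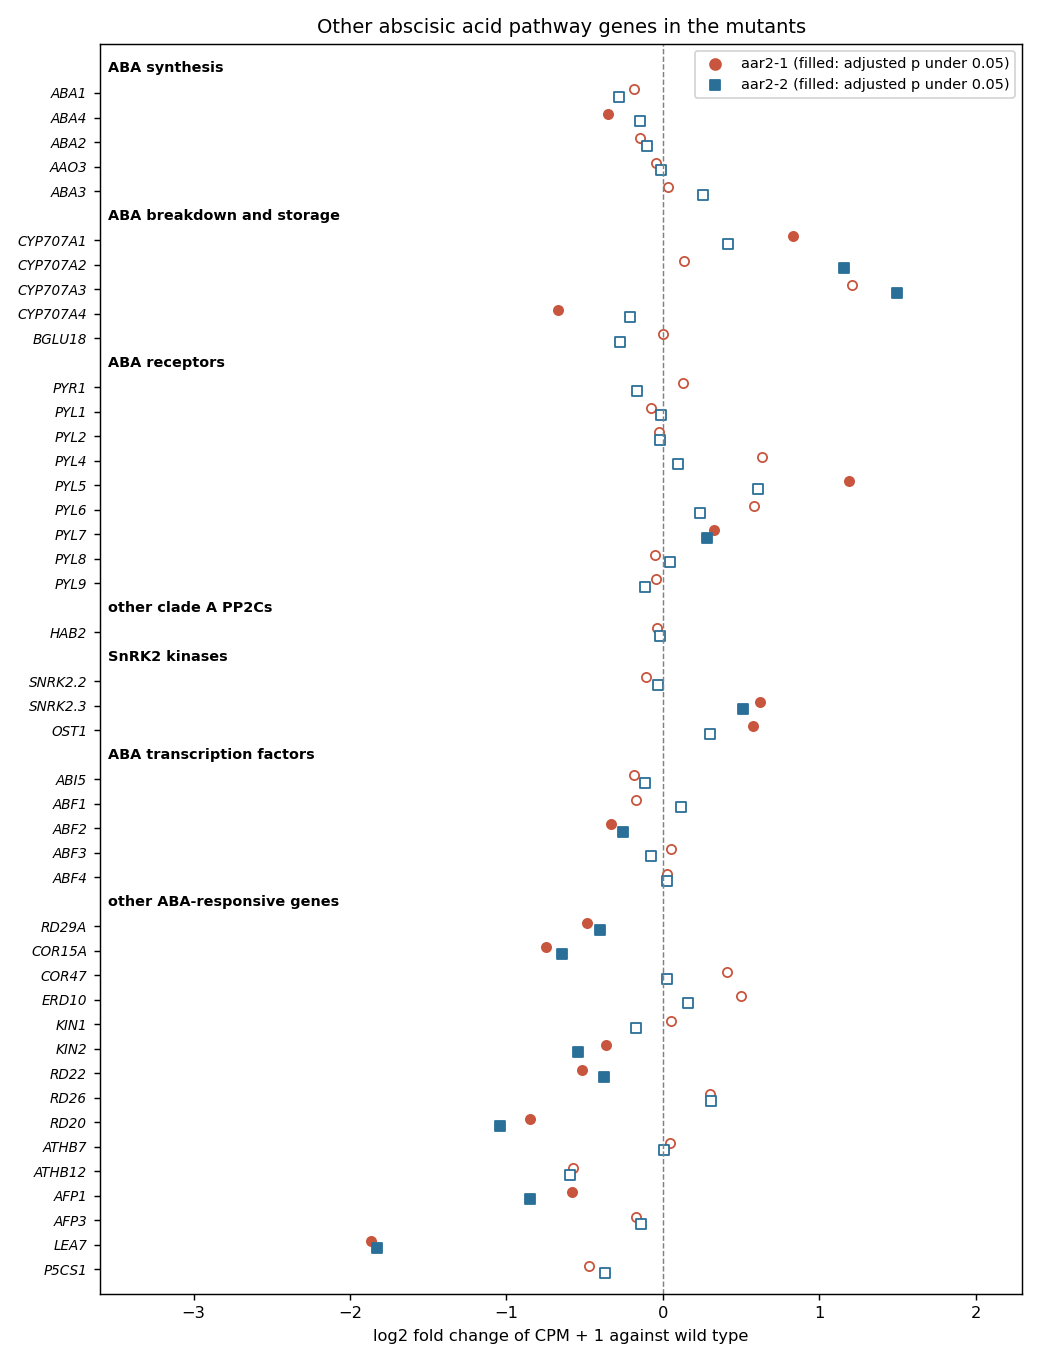
Log2 fold change of CPM + 1 against wild type (x axis) of the 43 tested pathway genes besides the members, grouped by role, with circles for aar2-1, squares for aar2-2 and filled symbols where the limma adjusted p was under 0.05. The 7 filled pairs among the ABA-responsive genes lie to the left of 0, and the filled symbols among receptors and kinases lie to its right.

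The tested genes whose pattern over the 9 libraries was most like that of HAI1 were found by Pearson's r of log2(CPM + 1), given as a description, since the libraries share genotype and depth. They were NIT2, which encodes a nitrilase (r = 0.992), LPA3, named for photosystem assembly (0.990), the MADS-box gene AGL24 (0.985), AT2G33630 (0.983) and PUR ALPHA-1 (0.975), out of 18837 genes compared. NIT2 averaged 51.5 ± 6.90 CPM in wild type, 15.4 ± 2.32 in aar2-1 and 13.7 ± 1.90 in aar2-2. Exons of AT2G33630 and PUR ALPHA-1 overlap those of a listed gene on the other strand. Among the members, the r with HAI1 ran from 0.861 for RAB18 to -0.578 for PP2CA.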

How the data were processed

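RNA-seq libraries were prepared with a NEBNext Ultra II kit from seedling RNA, per the labels' protocols. The authors deposited 1 table of CPM values per library; that unit was read from the values. Reads were counted with featureCounts 1.64 on TAIR10, and DESeq2 is also named, per the submitters' processing notes. The aligner, annotation, strand setting and filter on low genes are not given in the sources used here. Samples were grouped by their titles.

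Low values are whole multiples of the worth of 1 read, so reads were recovered; between 99.9956% and 100% of values per library came out whole within 0.02 read. limma 3.58.1 (lmFit, eBayes with trend, R 4.3.3) was fitted on log2(CPM + 1) with all 9 libraries and 3 group means, keeping 18838 genes whose CPM averaged 1 or more, with Benjamini-Hochberg adjustment over all of them. Intervals of 95% are not adjusted for multiple tests. The alternatives were, on recovered reads, edgeR 4.0.16 and DESeq2 1.42.0, and otherwise TMM scaling, a pseudocount of 0.1, no filter, the replicate number as a block, an adjusted p under 0.01 and leaving out each library. The procedure was tested on simulated counts. Symbols, exon lengths, overlaps and upstream windows came from the TAIR10.1 annotation, where 22767 of 22903 codes matched. Exact tests used SciPy 1.17.1.

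The members and gene lists were chosen with earlier results of these data known. Named besides the 10 members were pathway genes called in both mutants in the same direction, up to 3 per list called in 1 mutant with the largest fold change, RD29A, and the 5 genes most correlated with the member that changed most.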

Additional observations from a re-analysis of the deposited data

How the results depend on the processing

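The number of members called in aar2-1 stayed within 1.5 times of its value under every alternative except an adjusted p under 0.01, which left 3; that limit left 7 other pathway genes in aar2-1, 1 member in aar2-2 and 1 in both. DESeq2 called 5 members in aar2-2 and 5 in both, adding PP2CA and HAI2. Against wild type, DESeq2 called 23.1% of all genes in aar2-1 and 21.0% in aar2-2, and edgeR 24.4% and 21.2%. Leaving out 1 library gave 5 to 7 members in aar2-1, 1 to 3 in aar2-2, 1 to 3 in both and 0 to 2 between the mutants, and 9 to 22 other pathway genes in aar2-1, 8 to 14 in aar2-2 and 0 to 1 between the mutants. Members in aar2-2 fell to 1 without wild-type replicate 2 and without aar2-2 replicate 2. Shares of all genes called with a library left out, at an adjusted p under 0.01 or by DESeq2 in both mutants are not given here. These counts therefore describe the calls and are no result about the members or pathway genes. The 1 pathway gene called between the mutants was CYP707A2, with DESeq2, with edgeR and the replicate block, and without aar2-1 replicate 2.

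Pairing of the libraries by replicate number was not clear: correlations of deviations between same-numbered libraries ran from -0.191 to 0.518, with 4 of 9 not above 0.1. Those between replicates numbered 3 were all positive (0.22, 0.263 and 0.518), and PP2CA was highest in replicate 3 of each genotype. Whether the members share an effect of replicate number was not tested. With the replicate block 6 members were called in aar2-1 (HAB1 lost, limma adjusted p = 0.0703) and 4 in aar2-2 (PP2CA added, adjusted p = 0.0190), with 18 and 13 other pathway genes. The shares of all genes called with the block are not given here, so these counts too are descriptions.

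Sign changes touched values that were not called with all 9 libraries. Between the mutants, leaving out 1 library moved RAB18 between -0.091 and 0.36, ABI2 between -0.010 and 0.13 and HAB1 between -0.019 and 0.13, and HAB1 was -0.0011 with DESeq2. In aar2-1 against wild type, CYP707A2 moved between -0.043 and 0.46, the latter called (without aar2-1 replicate 3). The cause was not tested. Depth limits HAI2, HAI3 and RD29B, which rest on at most 47 reads per library.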
